A study of Caenorhabditis elegans with 35 samples.

Results

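Hedgehog-related and patched-related genes form large families in Caenorhabditis elegans, and 79 of them were measured here by 88 probe sets, of 17378 named genes and 20806 probe sets on the arrays. Members were taken by symbol: all genes of the families wrt (warthog, 10 genes), grl (ground-like, 28), grd (groundhog, 14) and ptr (patched-related, 23), and the single genes qua-1, hog-1, ptc-1 and ptc-3. The first 3 families with qua-1 and hog-1 give 54 ligand-like genes, and the ptr and ptc genes give 25 receptor-like genes. The rule used gene names alone and no measured value. Expression was measured in whole L3 larvae of 3 kinds in each of the F4 and F5 generations. F4 and F5 wdr-5/wdr-5 animals were homozygous mutants. F4 and F5 +/+ (from wdr-5) animals, called descendants below, were wild type at the locus but came from wdr-5 mutant ancestors. F4 and F5 +/+ (from +/+) animals, called controls, were wild type with wild-type ancestors. All worms were grown at the same temperature and received no other treatment that the labels name. The labels name neither the allele nor the cross behind the descendants. Each group had 6 arrays, 3 for each of 2 birth days, except F5 descendants, which had 5 arrays and only 2 of birth day 1.

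Worms have no true hedgehog ligand and no smoothened homologue. Their hedgehog-related proteins are secreted and carry a variable amino-terminal domain, by which the warthog, ground-like and groundhog families are told apart, and in some members the Hog domain that processes hedgehog in other animals. Patched and patched-related proteins are multi-pass membrane proteins with a sterol-sensing domain. Many genes on both sides are expressed in the hypodermis, glia and other cells that build cuticle, several oscillate with each larval moult, and loss of several causes moulting defects.

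Levels are deposited log2 intensities. The scale of low values differed between the birth days (the 5th percentile of an array was at most 3.23 on the first day and at least 4.12 on the second), so levels are set side by side only within a day and never between genes. Replicate arrays sharing group and day had Pearson correlations between 0.973 and 0.997 over probe sets. The wdr-5.1 transcript, the targeted gene, was lower than in controls by a log2 difference of -3.63 ± 0.14 (SE) in F4 mutants (limma, adjusted p = 1.12e-18) and of -3.77 ± 0.14 (SE) in F5 mutants (adjusted p = 4.21e-19). In descendants the wdr-5.1 difference was -0.043 in F4 and 0.0049 in F5. Of the 79 members, 52 were above the 25th percentile of the array on all 35 arrays and 7 were above it on none. Of the members named below, grl-17 was above it on 30 arrays, grd-7 on 18, and grl-23 and ptr-19 on 17 each. The gene grl-1 was above it on 6 arrays and ptr-9 on none. The differences of these genes were measured close to the lower end of the scale. No label says whether replicates were separate cultures, so the p-values measure the spread between these samples only. In lysates of whole animals, fewer cells of a type and less RNA per cell cannot be told apart.

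In F5 mutants 28 of the 79 genes were lower and 3 were higher than in F5 controls, past an adjusted p of 0.05 (limma, Benjamini-Hochberg over all probe sets). These are 35.4% and 3.80% of the members, against 16.1% lower and 16.9% higher, or 33.1% in either direction, among all 20806 probe sets tested. In F4 mutants 3 genes were lower and 2 higher, against 5.53% lower and 4.77% higher, or 10.3% in either direction, among all probe sets. The 5 genes past the threshold in F4 mutants, grl-14, grl-17, grl-4, ptr-24 and wrt-4, were all among the 31 of F5 mutants, in the same directions. The median difference over all members was -0.14 in F5 mutants, against -0.035 for all probe sets, and -0.040 in F4 mutants, against -0.021 for all probe sets. Both sides of the family took part in F5 mutants, with 18 ligand-like genes lower and 2 higher of 54, and 10 receptor-like genes lower and 1 higher of 25. The difference between the F5 and F4 mutant effects was also tested. At an unadjusted p under 0.05 there were 14 of the 79 members, against 2914 of the 20806 probe sets. No member passed the adjusted threshold, against 0.00961% of all probe sets. Hence an effect particular to F5 was not shown for any member in this fit. On birth day 2 alone 23 members passed that test, against 20.1% of all probe sets, and on birth day 1 alone none did, against 0.0961%.

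**Figure D1:**
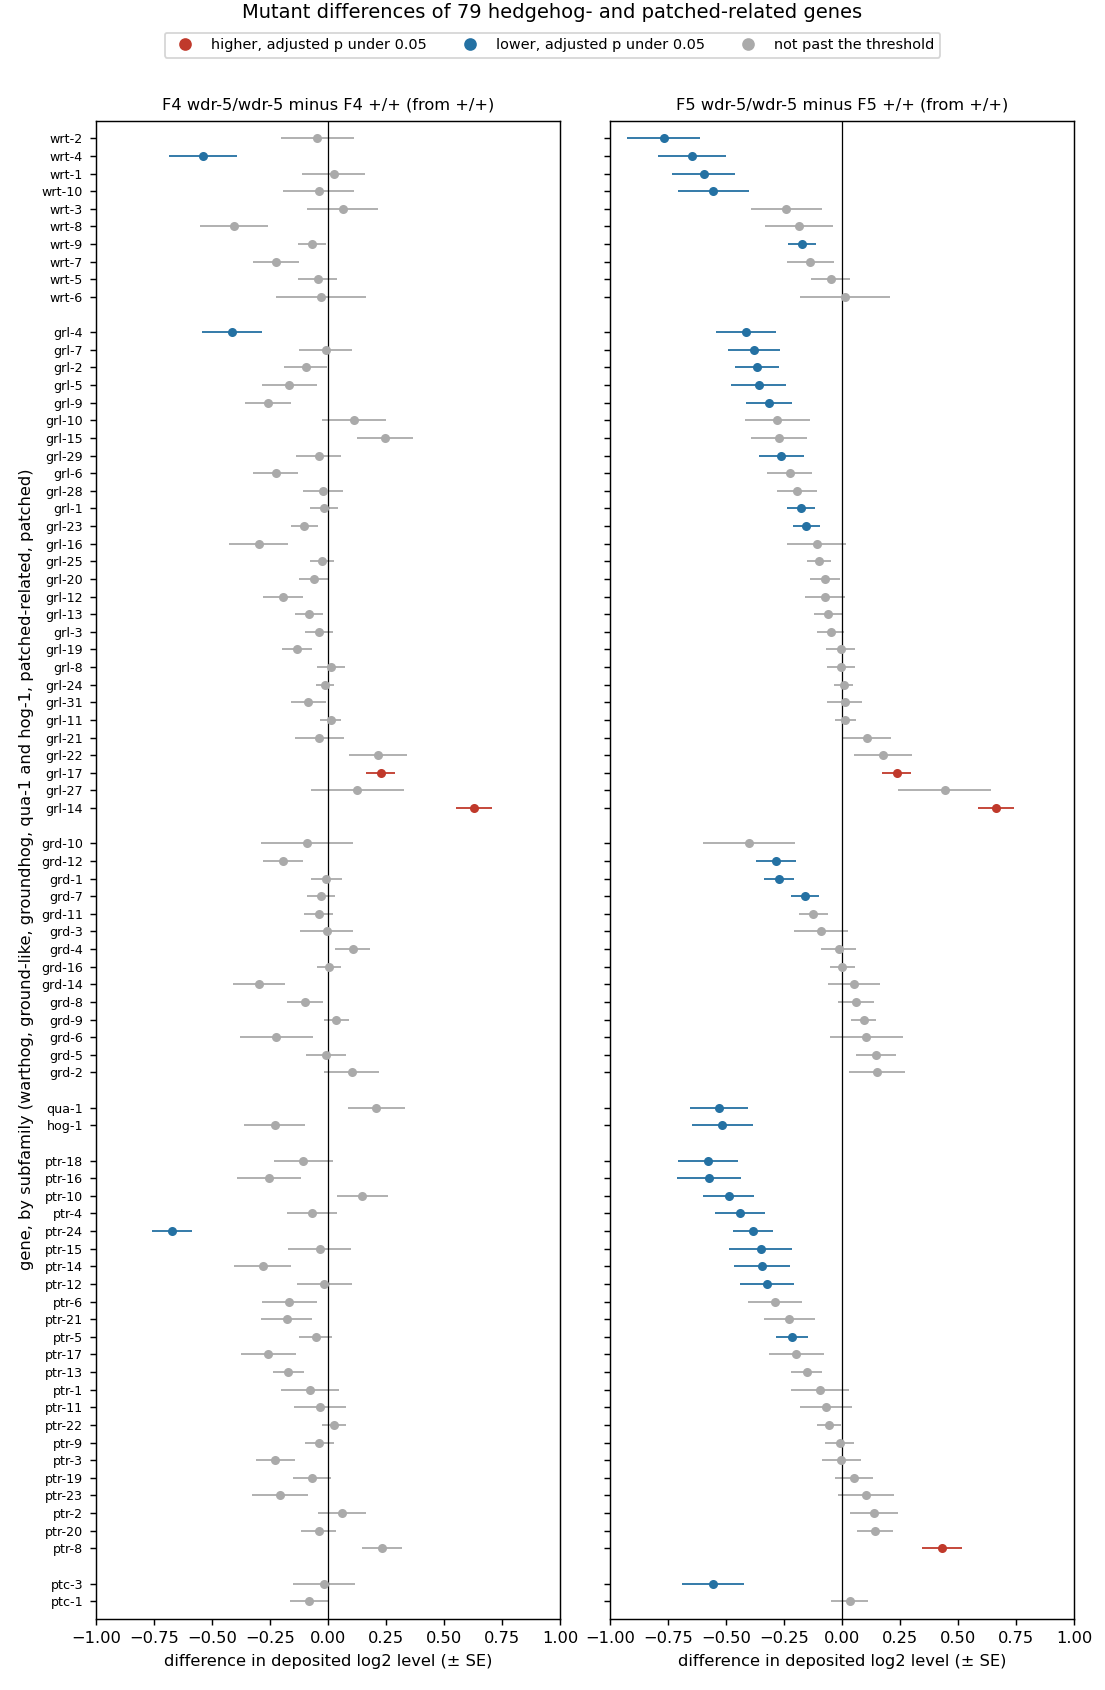
Difference in deposited log2 level of each of the 79 genes (points, ± SE) between mutants and controls of F4 (left) and F5 (right), with genes grouped by subfamily down the page and ordered by their F5 difference. In F5 mutants 28 genes were lower (blue) and 3 higher (red), and in F4 mutants 3 lower and 2 higher.

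A group of 4 genes passed the threshold in both generations of mutants and against both wild-type groups: grl-14, grl-17, ptr-24 and wrt-4. The ground-like gene grl-14 had levels of 5.67, 5.40 and 5.41 in F4 mutants on birth day 1, against 4.62, 4.91 and 4.50 in descendants and 4.83, 4.88 and 4.81 in controls. For grl-14 on birth day 2 they were 5.33, 5.42 and 5.31 in F4 mutants, against 4.70, 4.73 and 4.89 in descendants and 4.73, 4.84 and 4.68 in controls. Every F4 mutant array lay above every array of both wild-type groups of its day, and the same was true in F5. The difference of grl-14 from controls was 0.63 ± 0.078 (SE, adjusted p = 1.56e-06) in F4 and 0.66 ± 0.078 (adjusted p = 2.80e-07) in F5. It was the largest rise among the members in each generation.

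The patched-related gene ptr-24 moved the other way. Its levels were 7.39, 7.39 and 7.38 in F4 mutants on birth day 1, against 7.96, 8.10 and 7.88 in descendants and 7.81, 7.88 and 7.81 in controls. Levels of ptr-24 on birth day 2 were 7.74, 7.36 and 7.26 in F4 mutants, against 8.32, 8.38 and 8.62 in descendants and 8.19, 8.27 and 8.59 in controls. No mutant array reached a wild-type array of its day, in F4 or in F5. The difference from controls was -0.67 ± 0.086 (SE, adjusted p = 2.60e-06) in F4 and -0.39 ± 0.086 (adjusted p = 0.00111) in F5 for ptr-24. These effects did not pass the test of a difference between generations (0.29 ± 0.12 SE, adjusted p = 0.280).

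The dim ground-like gene grl-17 and the warthog gene wrt-4 were less clear-cut. For grl-17 the rise was small, at 0.23 ± 0.063 (SE, adjusted p = 0.0168) in F4 mutants and 0.23 ± 0.063 (adjusted p = 0.00505) in F5 mutants. All 6 of its F4 mutant arrays lay above all same-day controls, while of its F5 mutant arrays 5 lay above all same-day controls and 1 below all of them. For F4, leaving out F4 mutant replicate 3 gave an adjusted p of 0.0618. Levels of wrt-4 were 8.87, 8.48 and 8.67 in F5 mutants on birth day 1, against 9.53 and 9.53 in descendants and 9.53, 9.79 and 9.53 in controls. On birth day 2 they were 9.77, 9.63 and 8.76 in F5 mutants, against 9.86, 9.94 and 10.06 in descendants and 9.77, 9.65 and 9.79 in controls, so that 1 of the 3 mutant arrays carried most of that day's difference. The difference of wrt-4 from controls was -0.65 ± 0.15 (SE, adjusted p = 0.00122) in F5 and -0.54 ± 0.15 (adjusted p = 0.0159) in F4, and without F4 mutant replicate 5 the F4 value had an adjusted p of 0.0541. The fifth gene called in both generations, grl-4, fell by 0.41 on the log2 scale in F4 mutants (± 0.13 SE, adjusted p = 0.0362) and by 0.42 in F5 mutants (± 0.13 SE, adjusted p = 0.0135). For grl-4 the F4 call was lost on leaving out any of 4 single arrays.

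A further receptor-like gene, ptr-8, was higher in mutants against a level that also differed by generation. Its levels were 7.44, 7.57 and 7.30 in F5 mutants on birth day 1 and 7.46, 7.33 and 7.93 on birth day 2, against 7.04, 7.08 and 6.93 and then 7.19, 7.09 and 7.14 in F5 controls. All 6 F5 mutant arrays of ptr-8 lay above the F5 controls of their day. The difference was 0.43 ± 0.085 (SE, adjusted p = 0.000319) in F5, while in F4 it was 0.23 ± 0.085 and did not pass (adjusted p = 0.0737). The effects of the generations on ptr-8 did not pass the test of their difference (adjusted p = 0.472).

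**Figure D2:**
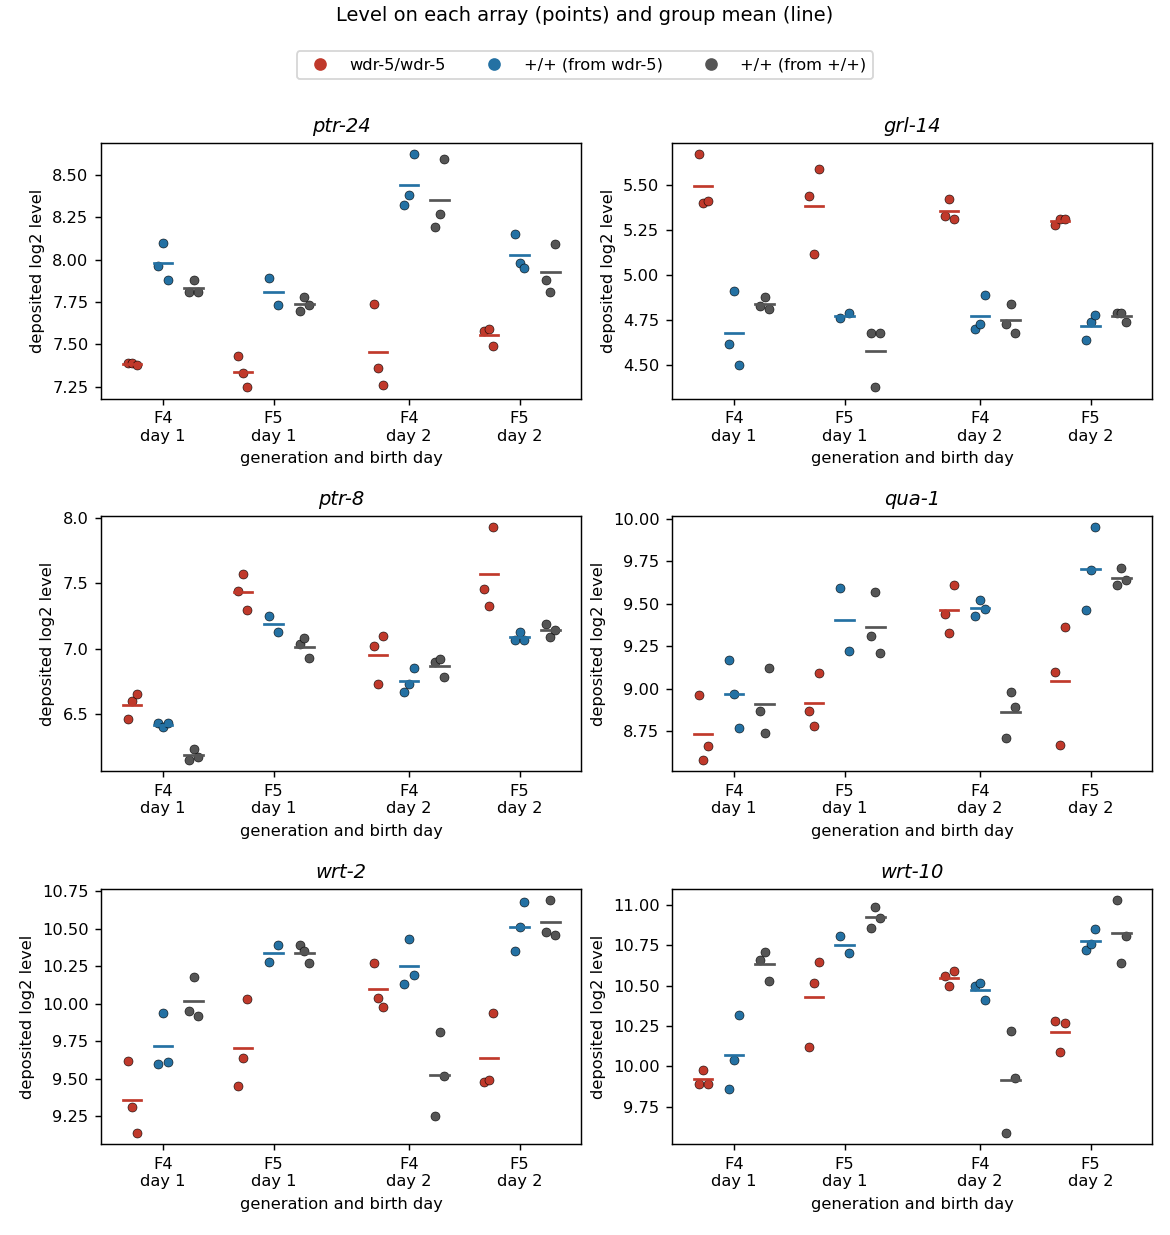
Deposited log2 level on each array (points) with the group mean (lines) for 6 genes, by generation and birth day, with mutants at the left of each cluster, descendants in the middle and controls at the right. Mutant arrays of grl-14 lie above, and those of ptr-24 below, all wild-type arrays of the same generation and day, while wrt-10 and wrt-2 have F4 mutants below controls on birth day 1 and above them on birth day 2.

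Among the ligand-like genes of F5 mutants, the warthogs held the largest falls. Of 10 wrt genes, 5 were lower and none was higher, against 16.1% lower and 16.9% higher among all probe sets. The 5 were wrt-2 with a difference of -0.77 ± 0.16 (SE, adjusted p = 0.000424), wrt-4 as above, wrt-1 with -0.60 ± 0.14 (adjusted p = 0.00119), wrt-10 with -0.56 ± 0.15 (adjusted p = 0.00650), and wrt-9 with -0.17 ± 0.060 (adjusted p = 0.0274). The wrt-9 call was lost on leaving out any of 3 arrays. Levels of wrt-2 were 9.45, 9.64 and 10.03 in F5 mutants on birth day 1, against 10.28 and 10.39 in descendants and 10.39, 10.35 and 10.27 in controls. The second day's wrt-2 levels were 9.48, 9.49 and 9.94 in F5 mutants, against 10.35, 10.51 and 10.68 in descendants and 10.48, 10.69 and 10.46 in controls. All F5 mutant arrays of wrt-2, wrt-1, wrt-10 and wrt-9 lay below every F5 control of their day. By contrast wrt-5, whose loss is known to impair embryonic development, had a difference of -0.046 ± 0.084 (adjusted p = 0.671). In the reference gene table wrt-1 and wrt-10 are neighbours on their chromosome, 1 of 4 neighbouring pairs among the members.

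The 2 single ligand-like genes both fell in F5 mutants. For qua-1 (quahog), which is required for moulting, levels were 8.87, 8.78 and 9.09 in F5 mutants on birth day 1, against 9.59 and 9.22 in descendants and 9.31, 9.57 and 9.21 in controls. On birth day 2 they were 9.10, 8.67 and 9.36 in F5 mutants, against 9.46, 9.70 and 9.95 in descendants and 9.61, 9.71 and 9.64 in controls. No F5 mutant array of qua-1 reached a wild-type array of its day, and the difference was -0.53 ± 0.12 (SE, adjusted p = 0.00153). The gene hog-1, named for its Hog domain, had a difference of -0.52 ± 0.13 (adjusted p = 0.00321), with 5 of 6 mutant arrays below all same-day controls.

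Of the 28 ground-like genes, 8 were lower and 2 higher in F5 mutants, and of the 14 groundhog genes 3 were lower. These counts stand beside 16.1% lower and 16.9% higher, or 33.1% in either direction, among all probe sets. The ground-like falls ran from -0.42 in grl-4 to -0.15 in grl-23, and included grl-7 at -0.38 ± 0.11 (SE, adjusted p = 0.0103). The grl-23 call was lost on leaving out any of 5 arrays, and that of grl-4 without F5 mutant replicate 1. The levels of grl-7, which encodes a ground-like protein of the apical matrix, were 9.81, 9.73 and 10.32 in F5 mutants on birth day 1, against 10.47, 10.55 and 10.21 in controls. For grl-7 on birth day 2 they were 9.81, 9.67 and 10.19 in F5 mutants, against 10.22, 10.10 and 10.27 in controls, so 1 mutant array of each day overlapped the controls. The groundhog with the smallest p was grd-1, at -0.27 ± 0.066 (adjusted p = 0.00207), with all mutant arrays below their day's controls. The remaining groundhog calls were grd-12 at -0.28 and the dim grd-7 at -0.16. That of grd-12 was lost without F5 mutant replicate 1, and that of grd-7 on leaving out any of 7 arrays. The gene grl-21 showed a difference of 0.10 ± 0.11 and did not pass (adjusted p = 0.464).

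On the receptor side, 9 of 23 ptr genes were lower and 1 was higher in F5 mutants, and of the ptc genes ptc-3 was lower. Among all probe sets 16.1% were lower and 16.9% higher. The gene ptc-3 encodes a patched homologue needed for osmoregulation and moulting. Its levels were 7.34, 7.89 and 8.05 in F5 mutants on birth day 1, against 8.44 and 8.31 in descendants and 8.10, 8.19 and 8.15 in controls. The ptc-3 levels of birth day 2 were 8.13, 8.15 and 8.08 in F5 mutants, against 8.55, 8.86 and 9.08 in descendants and 8.58, 8.95 and 9.02 in controls. The groups did not overlap within a day, and the difference of ptc-3 was -0.56 ± 0.13 (SE, adjusted p = 0.00194). The other patched gene, ptc-1, which acts in germline cytokinesis, had 0.031 ± 0.081 (adjusted p = 0.788).

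Among the patched-related genes, the largest falls in F5 mutants were those of ptr-18 and ptr-16. The gene ptr-18, which acts in clearing a ground-like protein from the extracellular space, had 6.49, 6.75 and 6.82 in F5 mutants on birth day 1, against 7.38 and 7.31 in descendants and 7.30, 7.09 and 7.12 in controls. Levels of ptr-18 on birth day 2 were 6.67, 6.73 and 6.84 in F5 mutants, against 7.34, 7.34 and 7.40 in descendants and 7.38, 7.48 and 7.41 in controls. Mutant arrays were again all below the wild-type arrays of their day, with a difference of -0.58 ± 0.13 (SE, adjusted p = 0.000975). The gene ptr-16 had -0.58 ± 0.14 (adjusted p = 0.00184), ptr-10, whose promoter is widely used to mark glia, -0.49 ± 0.11 (adjusted p = 0.00112), and ptr-4, needed for apical matrix and moulting, -0.44 ± 0.11 (adjusted p = 0.00217). The gene ptr-23 had 0.10 ± 0.12 and did not pass (adjusted p = 0.542).

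Each member of the family can also be read by whether all mutant arrays lay beyond all control arrays of the same day. In F5 mutants 12 members lay wholly below the controls, against 7.21% of all probe sets: grd-1, grd-12, grl-2, grl-4, ptc-3, ptr-18, ptr-24, qua-1, wrt-1, wrt-10, wrt-2 and wrt-9. Only grl-14 and ptr-8 lay wholly above, against 8.48% of all probe sets. In F4 mutants grl-14 and grl-17 lay wholly above, against 2.27% of probe sets, and ptr-24 wholly below, against 3.03%.

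Against descendants, F5 mutants had 23 members lower and 3 higher, against 15.4% lower and 14.8% higher (30.3% in all) among all probe sets. F4 mutants had 12 lower and 2 higher against descendants, beside 5.95% and 5.85% (11.8% in all). These comparisons share the mutant arrays with those against controls. In F5, 23 of the 31 genes called against controls were also called against descendants. In F4 the largest falls against descendants were wrt-4 at -0.85 ± 0.15 (SE, adjusted p = 0.000180), ptr-24 at -0.79 ± 0.086 (adjusted p = 1.51e-07) and wrt-8 at -0.73 ± 0.15 (adjusted p = 0.000978). They were followed by grl-16 at -0.58, ptr-18 at -0.57, ptr-16 at -0.53, grd-14 at -0.45, hog-1 at -0.44, ptr-1 at -0.38, ptr-23 at -0.37, grl-5 at -0.36 and ptr-3 at -0.30. The calls of 5 of these did not hold without each array in turn: that of ptr-23 was lost on leaving out any of 10 arrays, those of ptr-1 and grl-5 any of 8, that of hog-1 any of 4 and that of ptr-3 on leaving out 1, F4 descendant replicate 6. The rise of grl-17 against F4 descendants was lost without F4 mutant replicate 3 (adjusted p = 0.0548). Levels of wrt-8 were 6.30, 5.95 and 6.08 in F4 mutants on birth day 1, against 6.24, 6.58 and 6.41 in descendants and 5.97, 6.12 and 6.31 in controls. On birth day 2 wrt-8 had 5.90, 5.60 and 5.66 in F4 mutants, against 7.14, 6.54 and 6.95 in descendants and 6.24, 6.69 and 6.59 in controls, so it separated from both wild-type groups on that day alone.

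The F4 mutant comparison differed between the birth days for 26 of the 79 genes (32.9%), the same share as the 33.0% of all probe sets. As a signed value, the difference was higher on birth day 2 for 15 genes and lower for 11. Under quantile normalization these counts were 16 and 7, against 30.2% of all probe sets. Of the 26 calls, 17 were kept whichever array was left out. On birth day 1, taken alone in a fit with a mean for each group and day, 21 members were lower and 6 higher in F4 mutants than in controls, 34.2% of the members, against 36.6% of all probe sets. On birth day 2, 7 were lower and 9 higher, 20.3% of members, against 13.4% of all probe sets. The sign of the difference was the same on both days for 29 of the 79 genes (36.7%) in F4 mutants, against 41.4% of all probe sets, and for 58 (73.4%) in F5 mutants, against 75.9% of all probe sets. No member passed the corresponding test in F5 mutants, against 0.0721% of all probe sets.

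The genes wrt-10, wrt-2 and wrt-1 passed in opposite directions on the birth days in F4 mutants. Levels of wrt-10 were 9.89, 9.98 and 9.89 in F4 mutants on birth day 1, against 9.86, 10.04 and 10.32 in descendants and 10.66, 10.71 and 10.53 in controls. On birth day 2 wrt-10 had 10.56, 10.50 and 10.59 in F4 mutants, against 10.50, 10.52 and 10.41 in descendants and 9.59, 10.22 and 9.93 in controls. Mutants lay below controls on the first day and above them on the second, and descendant arrays likewise lay below all controls on the first day and above all of them on the second. The day difference of wrt-10 was 1.35 ± 0.18 (SE, adjusted p = 1.19e-05) in F4 mutants and 1.12 ± 0.18 (adjusted p = 0.00107) in F4 descendants. For wrt-2 it was 1.23 ± 0.21 in mutants and 1.03 ± 0.21 in descendants, and for wrt-1 1.06 ± 0.19 and 0.78 ± 0.19. All of these share the F4 control arrays. These 3 genes, all with a signed difference that was higher on birth day 2, are the members that passed among F4 descendants, against 1.81% of all probe sets. On leaving out single arrays 1 to 8 members passed (1 without F4 control replicate 4 or F4 descendant replicate 5, and 8 without F4 control replicate 5 or F5 mutant replicate 6). For ptr-2 the order was the reverse, with 6.78, 6.89 and 7.02 in F4 mutants on birth day 1, against 6.33, 6.32 and 6.64 in controls, and 6.71, 6.67 and 6.35 in F4 mutants on birth day 2, against 6.94, 6.87 and 6.94 in controls. Of the 28 genes lower in F5 mutants, 10 were among the 26 whose F4 difference varied by day. Both grl-14 and wrt-4 were outside those 26, and ptr-24 was inside, although it was lower in mutants on both days, at -0.45 and -0.90.

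**Figure D3:**
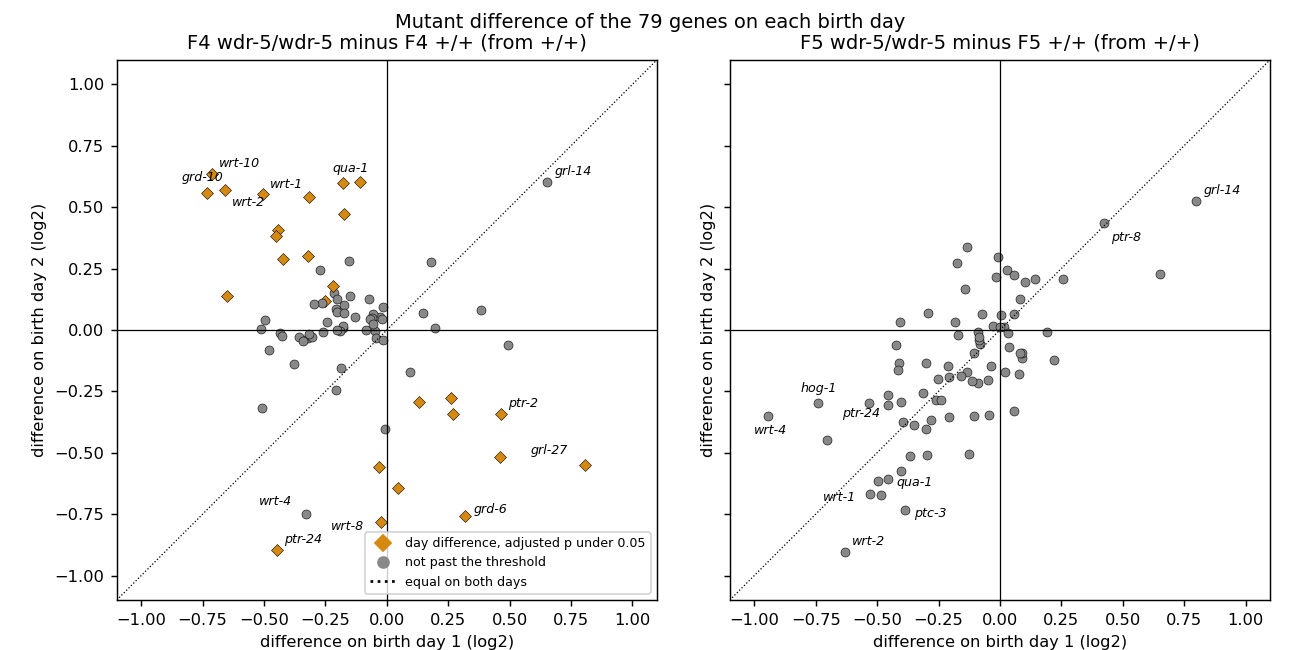
Difference between mutants and controls of each of the 79 genes on birth day 1 (horizontal axis) and birth day 2 (vertical axis), in log2, for F4 (left) and F5 (right), with diamonds for genes whose difference varied between the days. In F4 26 genes are diamonds and most points lie off the dotted line of equality, while in F5 none is a diamond and wrt-2, qua-1, ptc-3 and grl-14 keep their sign.

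In descendants no member passed against controls in the fit over both birth days, in F4 or in F5 (limma, adjusted p of 0.05). Among all probe sets 0.00% passed in each. At an unadjusted p under 0.05 there were 12 of the 79 members in F4, against 750 of the 20806 probe sets. That is a larger share of the members than of all probe sets, and its source was not tested. In F5 there was no member, against 210 of the 20806 probe sets. The smallest p-values of the F4 descendants belonged to ptr-18, with a difference of 0.46 ± 0.13 (SE, adjusted p = 0.999), and among the ligand-like genes to qua-1, at 0.33 ± 0.12 (adjusted p = 0.999). In F5 descendants the smallest p was that of ptr-9, at 0.11 ± 0.065 (adjusted p = 1.00). The median difference over the members was 0.060 in F4 descendants, against -0.017 for all probe sets, and 0.0088 in F5 descendants, against 0.0094. For grl-14 the descendants had -0.070 ± 0.078 in F4 and 0.064 ± 0.083 in F5, and for ptr-24 0.12 ± 0.086 and 0.088 ± 0.091, so neither showed in the descendants the difference seen in mutants. The difference between the F5 and F4 descendant effects passed for no member, against 0.00% of all probe sets. In the fit with a mean for each group and day, 1 member was lower in F4 descendants on birth day 1, against 0.745% of all probe sets. On birth day 2 there were 2 higher, against 0.231%. With each day fitted alone no member passed, against 0.0433% and 0.0481%. All F4 descendant arrays of grl-16 and wrt-6 lay above every control of their day, against 0.231% of all probe sets.

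Members also differed between the generations within each kind of animal. In F5 over F4 mutants 6 were higher and 3 lower, against 13.5% higher and 3.82% lower (17.4% in all) among all probe sets. In F5 over F4 descendants 18 were higher and 7 lower, against 20.0% and 4.76% (24.7% in all). In F5 over F4 controls 21 members were higher and 4 lower, against 16.8% and 4.96% (21.7% in all). These balances differed between the birth days in the fit with a mean for each group and day. In F5 over F4 mutants 21 members were higher and 6 lower on birth day 1, against 37.4% of all probe sets in either direction, and 2 were higher and 10 lower on birth day 2, against 18.1%. Descendants of F5 over F4 had 26 higher and 3 lower on birth day 1, against 32.9%, and none higher and 4 lower on birth day 2, against 3.29%. Controls had 17 higher and 3 lower on birth day 1, against 21.7%, and 14 higher and 9 lower on birth day 2, against 16.2%. Quantile normalization also moved the split, to 4 higher and 6 lower in mutants, 8 and 9 in descendants and 17 and 6 in controls. In either direction 15.5%, 14.8% and 18.2% of all probe sets then passed, in the same order. The genes grl-2, grl-21, grl-4, grl-6 and ptr-8 were higher in F5 in mutants, descendants and controls alike, and wrt-4 was lower in all 3. For ptr-8 the F5 over F4 difference was 0.75 ± 0.085 (SE, adjusted p = 6.67e-07) in mutants, 0.54 ± 0.090 (adjusted p = 0.000133) in descendants and 0.55 ± 0.085 (adjusted p = 4.72e-05) in controls. For wrt-4 it was -0.62 ± 0.15, -0.76 ± 0.15 and -0.52 ± 0.15 in the same order. The largest rise in F5 over F4 controls was that of ptr-10, at 0.75 ± 0.11 (adjusted p = 2.35e-05), and the largest fall that of wrt-8, at -0.53 ± 0.15 (adjusted p = 0.0100). Several genes lower in F5 mutants than in F5 controls, among them wrt-1, wrt-2, wrt-10, qua-1, ptc-3, ptr-10 and ptr-18, were higher in F5 than in F4 controls. In F5 over F4 mutants none of these 7 passed. The same pattern against controls held for grd-12, grl-1, grl-2, grl-4, grl-7 and ptr-15. Of these, grl-2 and grl-4 were also higher in F5 over F4 mutants. The comparison of F5 mutants with F5 controls and that of F5 over F4 controls share the F5 control arrays. Generation cannot be told apart from the time at which the cultures were grown.

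Other gene lists, of genes that are no members, moved beside the family. Among all probe sets 16.1% were lower and 16.9% higher in F5 mutants, and 5.53% and 4.77% in F4 mutants. Of 8 measured adult stage and yolk genes, all 8 were higher in F5 mutants than in F5 controls, with a median difference of 1.99. Among them were rme-2, the yolk receptor, at 1.52 ± 0.35 (SE, adjusted p = 0.00145), the yolk protein gene vit-2 at 2.58 ± 0.62 and the adult collagen gene col-19 at 2.30 ± 0.65. In F4 mutants none of the 8 passed, and the median was 1.82 on birth day 1 and -1.84 on birth day 2. Of 30 moult and apical matrix genes, 20 were lower and 1 higher in F5 mutants, with a median of -0.53, led by dpt-1 at -1.24 ± 0.17, the moulting gene mlt-10 at -0.96 ± 0.13 and sym-1 at -0.76 ± 0.13. In F4 mutants 3 of the 30 were lower, with a median of -0.36 for birth day 1 and of 0.22 for birth day 2. Of 11 moult cycle regulators, 7 were lower in F5 mutants, led by lin-29, a zinc finger regulator of the larva-to-adult switch, at -0.75 ± 0.083 (adjusted p = 8.05e-08), and in F4 mutants lin-29 alone was lower, at -0.34.

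Markers of tissues were also counted in F5 mutants, where 16.1% of all probe sets were lower and 16.9% higher (33.1% in all). Among 14 hypodermis and seam markers 7 were lower, with dpy-7 at -0.56 and dpy-8 at -0.58. Of 9 excretory duct and pore markers 6 were lower and 1 higher, of 8 glia markers 3 were lower, and of 16 germline markers 12 were higher with none lower. Intestine markers had 7 lower and 1 higher of 12, neuron markers 5 lower and 1 higher of 16, and body wall muscle markers 2 lower of 12. In F4 mutants, where 10.3% of all probe sets passed, none of the hypodermis and seam, glia, duct and pore or germline markers did. There 4 intestine and 2 body wall muscle markers were lower, and of the neuron markers snb-1 was higher and unc-17 lower. Their part in the differences of members was not tested, apart from the yolk list below. The level of the yolk list was uneven within groups. Its median, as log2 minus the mean of the birth day, ran from -1.26 to 1.77 in F5 mutants of birth day 1 and from -0.020 to 2.04 on birth day 2, against -2.41 to -0.91 and -2.32 to 0.028 in F5 controls. In F4 it ran from 1.31 to 1.86 in mutants of birth day 1, against -0.66 to -0.087 in controls, and from -1.20 to 1.15 in mutants of birth day 2, against 1.09 to 2.23 in controls.

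With the yolk list's level on each array as a covariate, an alternative added after seeing the data, 5 of the 31 members called in F5 mutants kept their call: grl-14 at 0.65, grl-17 at 0.25, ptr-8 at 0.39, ptr-24 at -0.49 and wrt-4 at -0.825. The other 26 did not pass against controls. Among all probe sets 12.7% passed in F5 mutants with the covariate, against 33.1% without it. All 5 calls of F4 mutants were kept, where 16.2% of all probe sets passed with the covariate, against 10.3% without it. Against F5 descendants 9 members kept their call with the covariate, where 12.1% of all probe sets passed, against 30.3% without it. They were grl-14, grl-17, ptr-8, ptr-24 and wrt-4, and also grl-5 at -0.42, ptc-3 at -0.38, ptr-18 at -0.47 and hog-1 at -0.52. The covariate was itself higher in F5 mutants, so its part in the 26 lost against controls and that of genotype cannot be told apart.

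**Figure D4:**
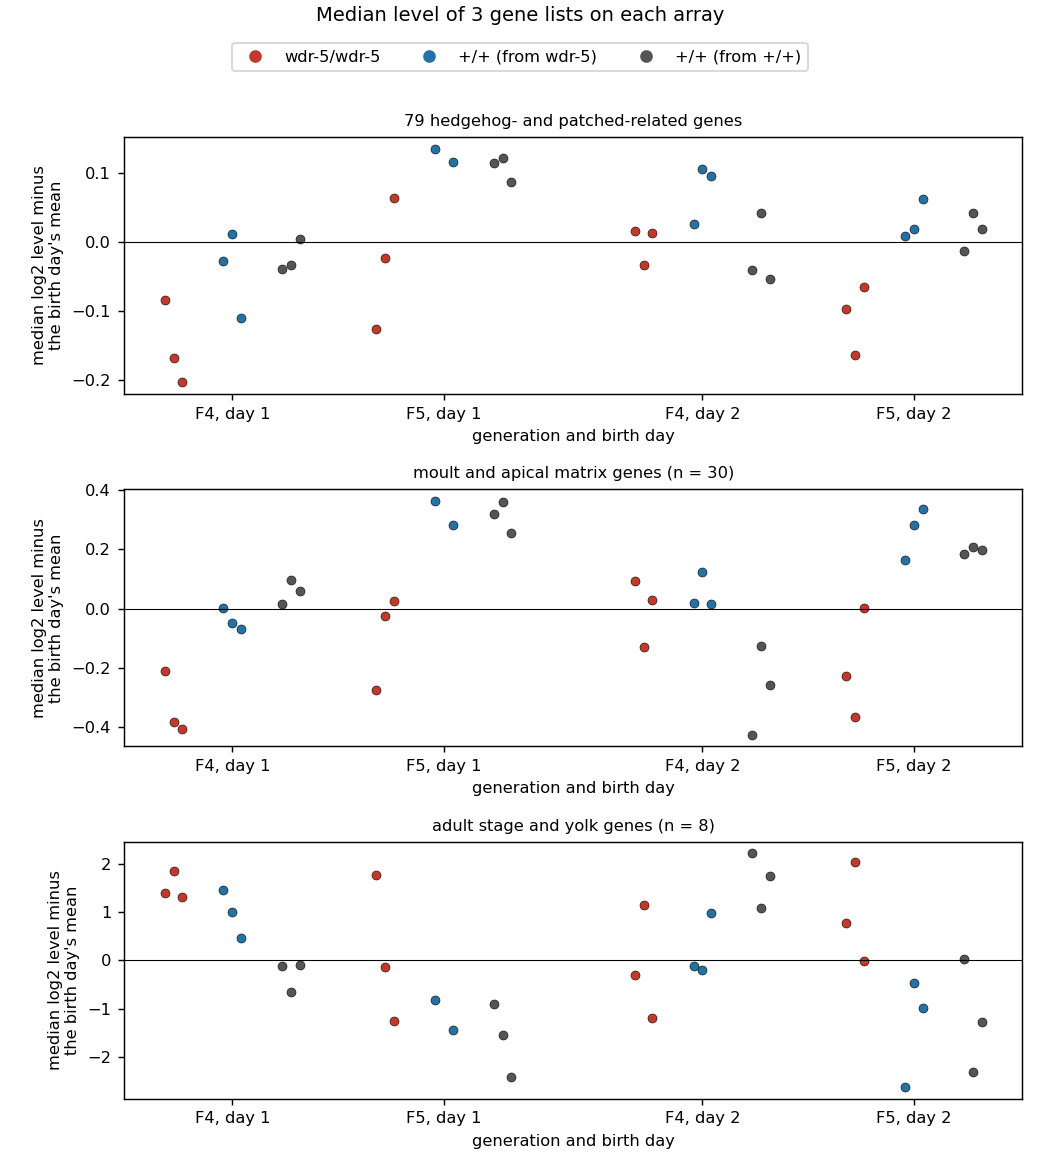
Median log2 level, less the mean of the birth day, on each array for the 79 family members (top), 30 moult and apical matrix genes (middle) and 8 adult stage and yolk genes (bottom), by generation and birth day, with mutants left, descendants in the middle and controls right. In F4 controls of birth day 2 the yolk list lay at 1.09 to 2.23 and the moult list at -0.43 to -0.13, and in F5 controls the yolk list lay lower.

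Genes of the hedgehog pathway outside the families, and other relatives of patched, were measured too. Of all probe sets 33.1% passed in F5 mutants and 10.3% in F4 mutants. Of 5 measured homologues of pathway genes outside the families, 2 were lower in F5 mutants: gpn-1, a glypican, at -0.57 ± 0.14 (SE, adjusted p = 0.00224), and lrp-1, a megalin-like endocytic receptor needed for moulting, at -0.31 ± 0.12 (adjusted p = 0.0453). In F4 mutants gpn-1 alone passed, at -0.44 ± 0.14 (adjusted p = 0.0409). Of 8 other sterol-sensing and patched-like genes, 2 were higher in F5 mutants, ncr-2 at 0.50 ± 0.12 (adjusted p = 0.00229) and scp-1 at 0.32 ± 0.090. In F4 mutants ncr-1, a homologue of the Niemann-Pick C1 gene, was lower at -0.41 ± 0.095 (adjusted p = 0.00480), and in F5 mutants it had -0.20 and did not pass (adjusted p = 0.112).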

How the data were processed

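RNA from 35 samples of whole L3 larvae was hybridised to expression arrays. The authors deposited RMA values, per the submitters' processing notes (no version given), and the file headers describe them as normalized and logged. The deposited scale was taken as log2 from its range, since no source names the base. Birth days were taken to have been normalized separately. Series and day tables held equal values (largest difference 0), and the 77 control probe sets of the day tables were left out. Array signal, not read depth, limits precision, and the number of arrays sets it.

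Members were found by the symbol column of the day tables. Of the 79 genes, 66 were named by accession in the reference gene table (assembly WBcel235) and 13 by symbol, and none changed name. Each gene was represented by its probe set of highest mean, and 3 of the 7 genes with several probe sets, grl-7, ptr-17 and wrt-5, had distinct ones. Lists of other genes were hand-written. The members and lists were chosen with earlier results of these data known.

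The model was fitted in limma 3.58.1 (R 4.3.3) by lmFit, then moderated by eBayes allowing a trend with intensity, and held 6 groups plus birth day within generation (27 residual degrees of freedom). All p-values are two-sided and were Benjamini-Hochberg adjusted across the 20806 probe sets; the threshold was 0.05. Day differences came from a fit with a mean per group and day (23 residual degrees of freedom). The code was tested on simulated data. Named members are all those past the threshold in a comparison, or, where over 24 passed, the 12 largest rises and falls of the same sign on both days. To these were added the member of smallest p per subfamily and 11 genes of known role, and for other lists up to 4 members past the threshold. A few genes outside this rule are named as called members or range ends and were chosen after their values were seen. Alternatives were the replicate block, no day term, quantile normalization over all arrays, a filter on dim probe sets, no trend, each day alone, the mean of a gene's probe sets and leaving out each array. No sequence is shown.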

Additional observations from a re-analysis of the deposited data

Results flagged for a closer look

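In 14 of the 186 groups of named members tested (31 genes in 6 groups each), the level of 1 array stood apart from the rest of its group, by Dixon's criterion on levels less the mean of the birth day. Chance flags about 1 in 20 groups. Among mutants these were grl-14 in F4 replicate 1 (0.70, highest) and grl-9 in F5 replicate 6 (-0.40, lowest). Among descendants of F4 they were grd-12 in replicate 3 (-0.57), grl-23 in replicate 1 (-0.21), hog-1 in replicate 2 (-0.03) and ptr-16 in replicate 3 (-0.17), all lowest, and ptr-8 in replicate 6 (-0.22, highest). Among descendants of F5 grl-7 was lowest in replicate 4 (0.08). In F4 controls grl-4 in replicate 2 (0.40), ptr-24 in replicate 6 (0.63) and wrt-9 in replicate 3 (0.14) were highest. In F5 controls grl-14 in replicate 2 (-0.59) and grl-2 in replicate 4 (0.08) were lowest, and ptr-10 in replicate 3 (0.63) was highest.

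The difference of F4 mutants from F4 controls varied between the birth days for 26 members, given here as birth day 2 minus birth day 1 in log2. As a signed value it was higher on day 2 for wrt-10 (1.35), grd-10 (1.29), wrt-2 (1.23), wrt-1 (1.06), grl-10 (0.86), ptc-3 (0.85), ptr-15 (0.83), ptr-17 (0.79), qua-1 (0.78), grl-15 (0.71), ptr-4 (0.71), ptr-10 (0.65), grl-7 (0.62), grl-28 (0.40) and ptr-19 (0.37). It was lower on day 2 for grl-27 (-1.36), grd-6 (-1.08), wrt-6 (-0.98), ptr-2 (-0.81), wrt-8 (-0.76), grl-16 (-0.69), grl-21 (-0.61), grd-5 (-0.54), grd-14 (-0.53), ptr-24 (-0.45) and ptc-1 (-0.43). Of these 26 calls, 17 were kept whichever array was left out. Those of ptr-19, grl-28, grd-14, wrt-6, ptc-1, ptr-24, grl-7, grl-16 and grl-21 were lost on leaving out at least 1 array. In F4 descendants the day difference passed for wrt-10 (1.12), wrt-2 (1.03) and wrt-1 (0.78), and wrt-10 alone kept its call whichever array was left out. The share of members with such a difference in F4 mutants, 32.9%, was close to the 33.0% of all probe sets.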

How the results depend on the processing

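Counts of members past the threshold moved with the treatment of birth day and, in F5 mutants, with the yolk covariate. Without the day term they were 2 in F4 mutants, 14 in F5 mutants, and 8 and 14 against descendants in F4 and F5. Shares of all probe sets there were 1.97%, 13.3%, 2.88% and 11.6%. In F5 over F4 controls, descendants and mutants the counts were 9, 5 and 1, beside 3.35%, 2.02% and 0.423% of all probe sets. Birth day 1 alone gave 19 in F4 mutants, 16 in F5 mutants, and 6 and 16 against descendants. The shares of all probe sets were 30.4%, 21.8%, 12.7% and 16.6%. In F5 over F4 controls and mutants that day gave 15 and 22, beside 16.9% and 32.8% of all probe sets. Birth day 2 alone gave 18 in F4 mutants, 15 in F5 mutants and 7 in F4 mutants against descendants. Among all probe sets 12%, 20.3% and 6.03% passed there, in the same order. For the difference of the mutant effect between generations that day gave 23, beside 20.1% of all probe sets. In F5 over F4 descendants and mutants that day gave 4 and 14, beside 2.39% and 20.6% of all probe sets. With the yolk covariate, the lowest of these settings in F5, the counts were 5 in F5 mutants and 9 against descendants. Shares of all probe sets were then 12.7% and 12.1%. The difference of grl-28 in F5 over F4 mutants turned to 0.078 on birth day 1 alone. The replicate block gave 5 in F4 mutants and 31 in F5 mutants, beside 8.81% and 31.5% of all probe sets. Deviations of same-numbered arrays had a median r of 0.033 (34 pairs, 11 over 0.1). Those of other-numbered arrays had a median r of -0.017 (68 pairs, 18 over 0.1). The labels do not say whether the numbers are a pairing, and these values cannot settle it. Leaving out 1 array gave 3 to 8 in F4 mutants (3 without mutant replicate 3, 8 without mutant replicate 1), 25 to 33 in F5 mutants, 10 to 16 and 20 to 30 against descendants, 0 to 1 for the mutant generation difference (1 without F4 mutant replicate 2 or F5 mutant replicate 6), 19 to 29, 16 to 29 and 5 to 13 in F5 over F4 controls, descendants and mutants (16 without F4 descendant replicate 1, 5 without F5 mutant replicate 6), 21 to 30 for the F4 mutant day difference and 1 to 8 for that of F4 descendants (1 without F4 control replicate 4 or F4 descendant replicate 5, 8 without F4 control replicate 5 or F5 mutant replicate 6). Of the 31 F5 calls, 18 were kept whichever array was left out. Those of grd-7, grd-12, grl-1, grl-4, grl-23, ptr-15 and wrt-9 were among the calls lost without at least 1 array. Quantile normalization kept 27 of the 31 F5 calls. It also kept 15 of 25 calls in F5 over F4 descendants, 6 of 9 in mutants and 21 of 25 in controls. Of the F4 mutant day difference it kept 20 of 26. The signed difference was then higher on birth day 2 for 16 members and lower for 7, beside 30.2% of all probe sets. For the 31, the filter on dim probe sets, no trend and the mean of a gene's probe sets kept all 31. Causes of these changes were not tested. Array signal limits dim members.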
